A study of Mus musculus with 4 samples.

Results

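Interferon stimulated genes are the genes that cells switch on when an interferon reaches its receptor, and 48 of them, named in a fixed list, were followed here across the genotypes of the study. All 48 symbols were present among the 21937 genes of the count table. The samples were splenic CD4+ T cells of B6 mice aged 6 weeks, treated with PMA and ionomycin, a phorbol ester and a calcium ionophore that together stand in for signals downstream of the T cell receptor. The groups were DKO (Itch and WWP2), in which both ubiquitin ligases of the NEDD4 family should be missing, Itchf/f Cd4cre, WWP2-/- and wild type, with 1 library each. They are called the library labelled double KO, Itch KO, WWP2 KO and wild type. In Itch KO the floxed Itch allele is deleted by a Cre driven from Cd4, so the loss covers T cells and not the whole animal, while WWP2-/- is named with no restriction to a cell type. The labels leave unsaid whether the double KO carries the floxed Itch allele, how long the drugs were applied and how many mice gave each library; these points are not known here. With 1 library per genotype, no difference below has a replicate check.

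Type I interferons signal through the receptor chains Ifnar1 and Ifnar2 and the kinases Jak1 and Tyk2. A complex that holds Irf9 then binds the interferon stimulated response element (ISRE) in target promoters. Interferon gamma, a product of activated T cells, signals through Ifngr1 and Ifngr2 to promoters with the gamma activated site (GAS) and also raises Irf1, itself an ISRE-binding factor. The IFIT, OAS and Mx proteins, Isg15 and the RNA sensors are the classical antiviral products of type I interferon. The guanylate-binding proteins (GBP) and immunity-related GTPases (IRG) are best known as products of interferon gamma.

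RefSeq promoters of build GRCm38.p6, running from 250 bases before to 50 bases after each gene start, were at hand for 30 of the 48 members. ISRE letters were searched on both strands as GAAA, any 2 bases and GAAA again, and GAS letters as TTC, any 3 bases and GAA, which reads the same on both strands. Overlapping matches were each counted. ISRE letters stood in the promoters of 17 of these 30 members, or 56.7% of them, against 3.99% of all 27025 genes in the promoter set. GAS letters stood in 8 of 30 (26.7%), against 9.55% of all genes. A match is a description of the letters, not a binding site. The IFIT promoters are shown whole because these genes had the lowest ratios of the list. Ifit1 lies at chr19:34640639-34640938 (plus strand), the more upstream of the Ifit2 promoters at chr19:34550444-34550743 (plus strand) and Ifit3 at chr19:34583279-34583578 (plus strand), with matches in capitals and each strand read 5′ to 3′.
Ifit1: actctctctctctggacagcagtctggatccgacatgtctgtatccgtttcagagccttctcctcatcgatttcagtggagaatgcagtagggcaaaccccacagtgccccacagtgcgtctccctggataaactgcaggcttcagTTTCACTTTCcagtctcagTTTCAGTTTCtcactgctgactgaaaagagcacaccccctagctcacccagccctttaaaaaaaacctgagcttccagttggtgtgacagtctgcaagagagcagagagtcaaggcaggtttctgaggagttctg
Ifit2: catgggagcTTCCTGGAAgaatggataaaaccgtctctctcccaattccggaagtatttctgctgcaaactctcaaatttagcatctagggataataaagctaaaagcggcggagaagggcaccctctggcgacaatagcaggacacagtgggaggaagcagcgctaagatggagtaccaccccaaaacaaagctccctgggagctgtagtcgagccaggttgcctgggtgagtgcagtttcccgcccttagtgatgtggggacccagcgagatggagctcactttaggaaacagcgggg
Ifit3: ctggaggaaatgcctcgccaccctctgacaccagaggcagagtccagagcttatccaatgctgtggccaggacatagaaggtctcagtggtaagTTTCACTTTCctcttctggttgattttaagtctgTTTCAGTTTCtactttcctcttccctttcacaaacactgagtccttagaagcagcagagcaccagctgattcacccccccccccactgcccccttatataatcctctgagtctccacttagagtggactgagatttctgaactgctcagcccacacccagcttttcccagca

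The Ifit1 and Ifit3 promoters each held 2 ISRE matches, whose first bases lay 104 and 85 bases before the Ifit1 start and 156 and 122 bases before the Ifit3 start. The Ifit2 window held 1 GAS match and no ISRE match, and a second Ifit2 start had neither. Shorter stretches around the ISRE matches follow, first for GTPase members that stood below wild type under both Itch-deficient labels. These are Gbp2 at chr3:142620579-142620638 (plus strand), Igtp at chr11:58199497-58199556 (plus strand), Irgm2 at chr11:58214888-58214947 (plus strand) and Irgm1 at chr11:48871410-48871475 (minus strand).
Gbp2: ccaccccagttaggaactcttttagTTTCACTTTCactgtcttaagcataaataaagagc
Igtp: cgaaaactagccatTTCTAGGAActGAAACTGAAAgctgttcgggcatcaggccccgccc
Irgm2: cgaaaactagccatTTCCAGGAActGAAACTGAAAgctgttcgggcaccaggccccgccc
Irgm1: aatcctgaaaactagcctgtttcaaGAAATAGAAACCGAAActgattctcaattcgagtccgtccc

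The Igtp and Irgm2 stretches were identical at 58 of 60 bases, and each held a GAS match that ran to within a few bases of the ISRE match. Some members with raised levels in the library labelled double KO carried ISRE letters too. Isg15 at chr4:156200850-156200921 (minus strand), Oas3 at chr5:120777700-120777759 (minus strand) and Ddx58 at chr4:40239789-40239848 (minus strand) are shown for comparison.
Isg15: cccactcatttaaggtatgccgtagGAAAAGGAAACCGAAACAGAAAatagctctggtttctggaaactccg
Oas3: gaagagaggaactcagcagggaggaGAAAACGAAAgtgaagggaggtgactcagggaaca
Ddx58: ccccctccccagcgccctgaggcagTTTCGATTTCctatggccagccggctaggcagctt

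ISRE letters therefore stood near the starts of members on both sides of wild type. In Isg15 there were 3 overlapping matches in tandem. The Ddx58 match lay just downstream of the gene start.

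Library facts bear on every comparison. Total counts ran from 17130747 to 17990392 reads, so the libraries were of like depth. Wwp2 had 1135 reads in the library labelled double KO, 1332 in the Itch KO library, 4 in WWP2 KO and 1363 in wild type. The Wwp2 label therefore held in WWP2 KO and is in doubt in the library labelled double KO. Itch had 2389, 1914, 1996 and 2083 reads in the same order, a count over the whole gene that cannot check a deleted part. The 10 T cell markers, Cd3e and Cd4 among them, were all present and summed to between 3076 and 3143 CPM, although in the library labelled double KO 2 of them (Cd3g and Cd4) were at least 2-fold above wild type and 1 (Cd5) below. Markers of B cells, neutrophils and erythroid cells summed to at most 3.98, 1.18 and 0.377 CPM.

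Levels are given as reads and as CPM, the read count scaled to a common library total with trimmed mean of M values (TMM) factors. Folds are ratios of scaled counts with exact 95% intervals, and log2 ratios carry a prior count of 2. The intervals cover counting error only, since 1 library per genotype leaves no spread between replicates. They also treat reads as independent molecules, which reads are not. Calls required a mean level of at least 2 CPM, a log2 ratio of 1 or more in size and a fold interval that excluded 1. That minimum was passed by 9926 genes and by 41 of the 48 members.

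In the library labelled double KO, 8 members were called higher than in wild type (19.5% of the 41, against 12.3% of all tested genes) and 4 were called lower (9.76%, against 6.34%). The higher ones were Isg15, Isg20, Mx1, Oas1b, Oas3, Ifi204, Ddx58 and Zbp1, and the lower ones Ifit1, Ifit2, Ifit3 and Gbp2. The median log2 ratio of the 41 was 0.01, beside -0.03 over all tested genes, with members on both sides. Mx1, Oas2 and Ifi204 reached the minimum level only through this library, in which they were highest, and their counts are no support for a direction of the list.

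In Itch KO 2 members were called higher than in wild type, Mx1 and Ifi204 (4.88%, against 4.89% of all tested genes), a share at the background. With levels and scaling taken without the library labelled double KO, both fell under the minimum and 0 of 38 were called higher and 2 lower. The 2 called lower, Ifit2 and Ifit3, made 4.88% of the members, against 0.846% of all tested genes. The median log2 ratio of the members was -0.18, beside -0.02 over all tested genes.

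In WWP2 KO 0 of 41 members were called in either direction against wild type, where 0.282% of all tested genes were called higher and 0.161% lower. The median log2 ratio was 0.18, beside -0.01 over all tested genes, and single values ran from -0.63 for Ifit3 to 0.78 for Iigp1. These comparisons share the wild-type library, so any deviation of that library enters each of them.

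**Figure D1:**
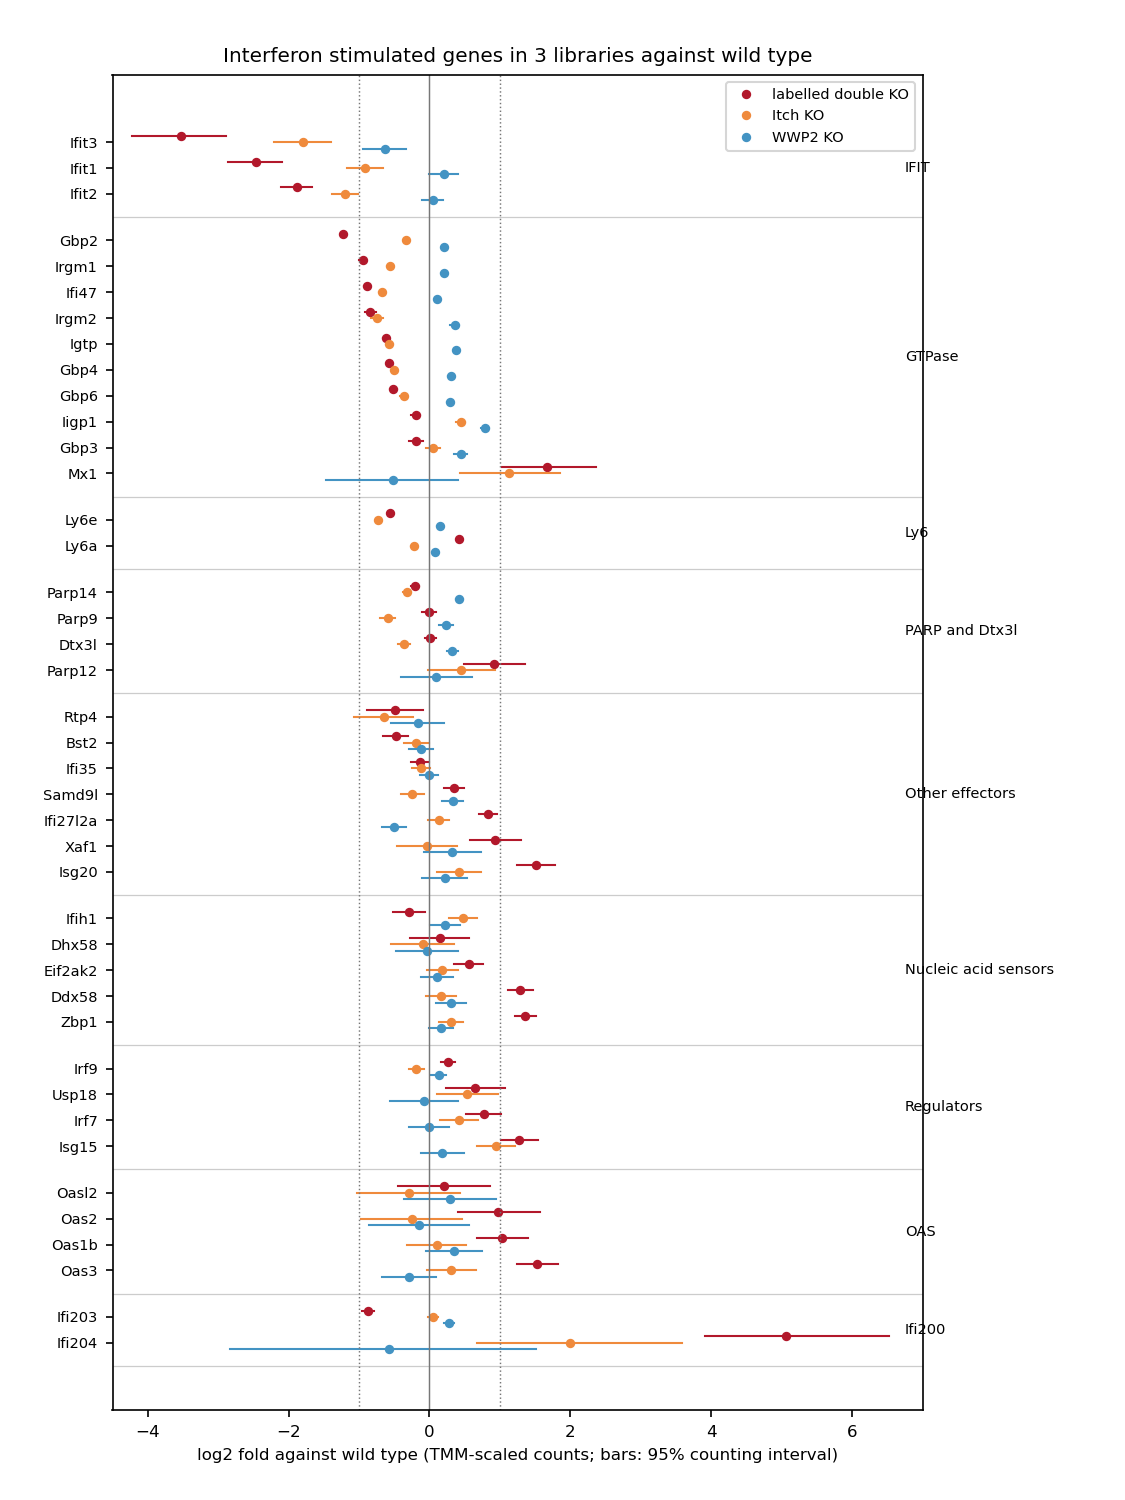
Log2 fold of each of the 41 tested members against wild type (x axis), by group of members (right), in the library labelled double KO, Itch KO and WWP2 KO; lines are 95% counting intervals, which are shorter than the point for abundant genes, and dotted lines mark 2-fold. The 3 IFIT genes lie farthest to the left in the library labelled double KO, and Ifi204, whose fold was 33.4, farthest to the right. Mx1, Oas2 and Ifi204 reached the minimum level only through the library labelled double KO.

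**Figure D2:**
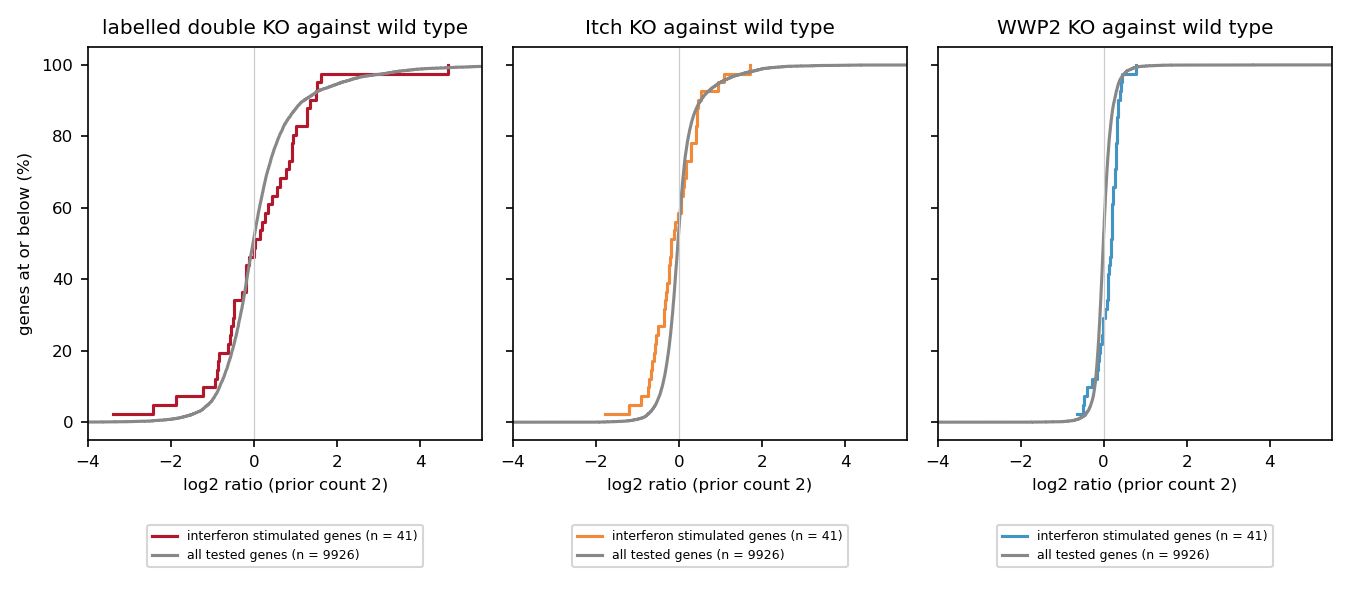
Cumulative share of genes (y axis, %) at or below each log2 ratio against wild type (x axis), for the 41 tested members and for all 9926 tested genes, with 1 panel per library. In the library labelled double KO the members spread to both sides of the all-gene curve, and in WWP2 KO most lie to its right, with medians of 0.18 and -0.01.

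The IFIT genes encode tetratricopeptide proteins that bind viral RNA or its 5′ end structures and block its translation. Ifit1 had 71 reads in the library labelled double KO, 194 in the Itch KO library, 417 in WWP2 KO and 366 in wild type. Ifit2, the family member also tied to cell death, had 220, 330, 771 and 756 reads in that order. Ifit3, a partner that stabilises IFIT complexes in human cells, had 22, 68, 150 and 236 reads.

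All 3 IFIT genes were thus lowest in the library labelled double KO, next lowest in Itch KO, and above both in WWP2 KO and wild type. Against wild type, the library labelled double KO was 5.53-fold lower for Ifit1 (4.28 to 7.23), 3.68-fold lower for Ifit2 (3.17 to 4.30) and 11.5-fold lower for Ifit3 (7.42 to 18.7). Itch KO was 1.89-fold lower for Ifit1 (1.58 to 2.26), short of the 2-fold rule, 2.29-fold lower for Ifit2 (2.01 to 2.62) and 3.47-fold lower for Ifit3 (2.64 to 4.62). WWP2 KO stood at 1.15-fold for Ifit1 (0.999 to 1.33) and 1.03-fold for Ifit2 (0.932 to 1.14), intervals that include 1. Ifit3 was the exception at 0.643-fold (0.520 to 0.792).

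Set against Itch KO directly, the library labelled double KO was 2.93-fold lower for Ifit1 (2.22 to 3.90) and 3.31-fold lower for Ifit3 (2.02 to 5.63). Ifit2, at 1.61-fold lower (1.35 to 1.92), did not pass. That comparison called 6 of 41 members higher (14.6%, against 9.18% of all tested genes), namely Isg20, Oas2, Oas3, Ifi204, Ddx58 and Zbp1. It called 2 lower (4.88%, against 5.16%), these IFIT genes. Of the 6, Oas2 and Ifi204 reached the minimum level only through the library labelled double KO. That count is thus no support for a direction of the list. Against WWP2 KO all 3 IFIT genes were called lower, by 3.80-fold for Ifit2 (3.27 to 4.43) up to 7.39-fold for Ifit3 (4.71 to 12.1). Reads of Ifit1 and Ifit3 can be shared with close copies beside them, so the split between copies is uncertain.

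**Figure D3:**
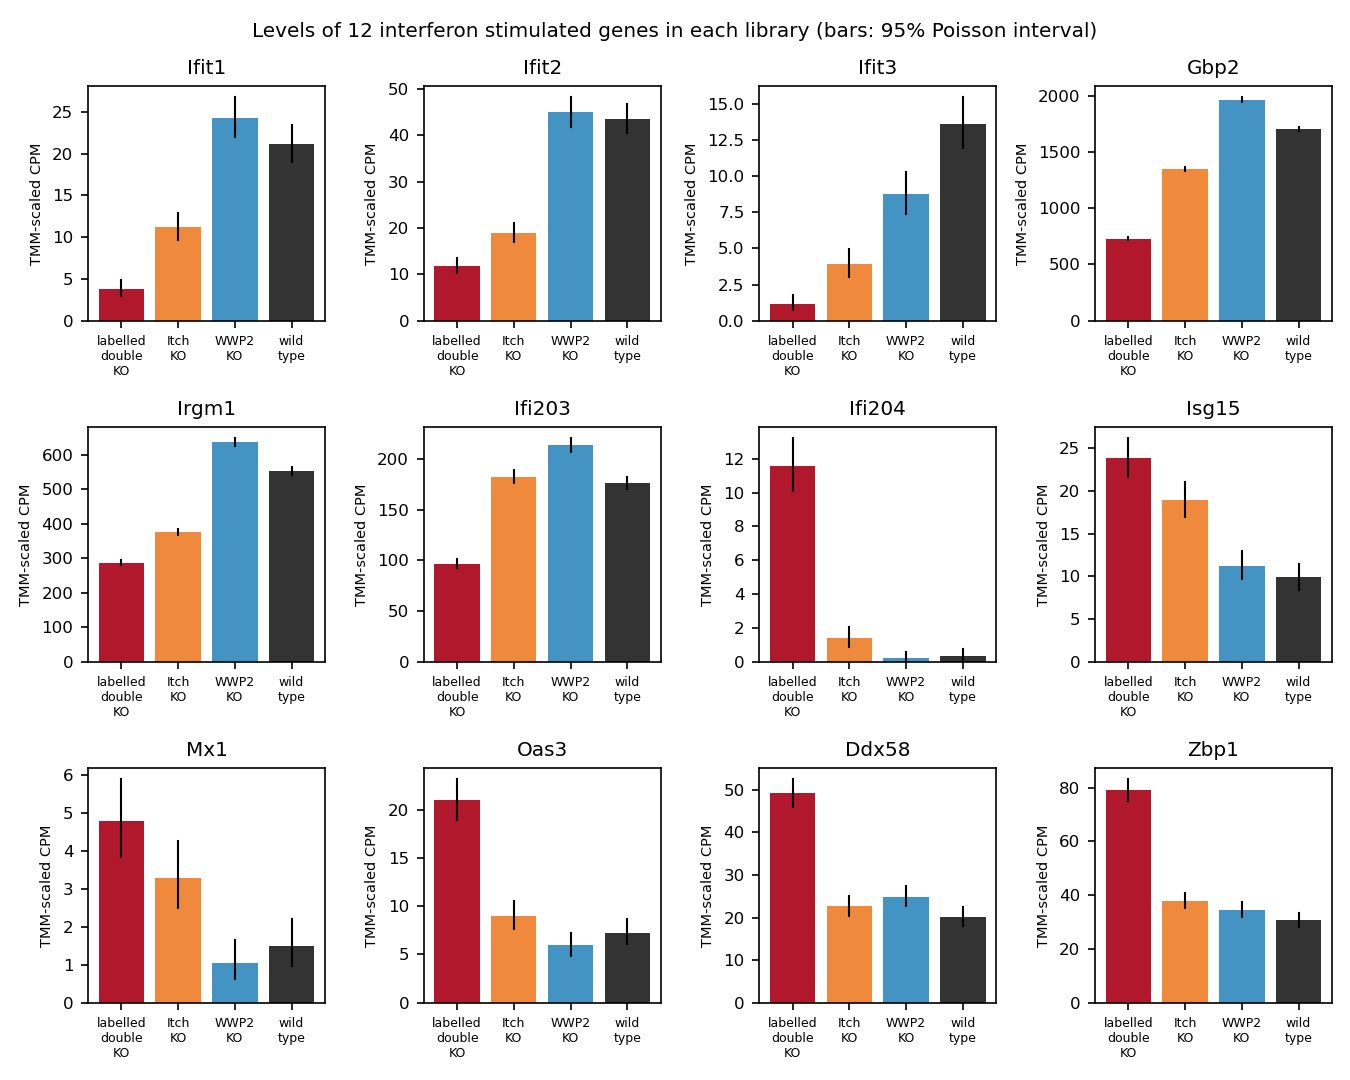
TMM-scaled CPM (y axis, from 0) of 12 members in the library labelled double KO, Itch KO, WWP2 KO and wild type; lines are 95% Poisson intervals of counting error, and each bar is 1 library. Ifit1, Ifit2, Ifit3, Gbp2 and Irgm1 stand lower in the libraries of both Itch-deficient labels, while Isg15 and Mx1 stand higher in them, and Oas3, Ddx58 and Zbp1 are highest in the library labelled double KO. Mx1 and Ifi204 reached the minimum level only through the library labelled double KO.

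The GTPase members are of 2 kinds by protein, the GBP and IRG genes and the Mx genes. The 9 GBP and IRG genes with enough reads encode effector or regulatory GTPases of the defence against intracellular pathogens. All 9 lay below wild type in the library labelled double KO, with folds from 0.428 to 0.878 and every interval below 1; over all tested genes, 40.6% of intervals lay below 1 and 37.3% above. Their median log2 ratio was -0.62. In Itch KO 7 of the 9 had intervals below 1 (28.4% of all tested genes) and 1, Iigp1, above it (25.8%), with a median of -0.51. In WWP2 KO all 9 had intervals above 1 (14.5% of all tested genes, with 17.6% below), from 1.08-fold to 1.72-fold, with a median of 0.30. Most of these differences were under 2-fold. Each of the 9 genes had at least 1560 reads in every library, so their intervals were narrow. Genes with few reads need larger differences for an interval to exclude 1. The all-gene shares include such genes and are not matched for read number.

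Gbp2, a guanylate-binding protein that coats pathogen vacuoles, had 13562 reads in the library labelled double KO, 23390 in the Itch KO library, 33725 in WWP2 KO and 29574 in wild type. It was the only GBP or IRG gene called against wild type, 2.34-fold lower in the library labelled double KO (2.29 to 2.39). That made 1 of 10 tested GTPase members called lower (10%, against 6.34% of all tested genes). Irgm1, a regulatory IRG protein of membranes and autophagy, had 5336, 6502, 10900 and 9586 reads in the same order. It was 1.93-fold lower than wild type (1.86 to 1.99) in the library labelled double KO and 1.47-fold lower (1.43 to 1.52) in Itch KO. Irgm2 had 1985, 1977, 4195 and 3314 reads, both Itch-deficient labels under the other libraries, with the library labelled double KO at 0.937-fold of Itch KO (0.880 to 0.998).

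Ifi47, an IRG gene, had 8782 reads in the library labelled double KO, 9502 in the Itch KO library, 16122 in WWP2 KO and 15142 in wild type. Igtp, the regulatory IRG gene next to Irgm2, had 6472, 6235, 11939 and 9258 reads. Gbp4 and Gbp6 had the same order of groups, at 0.674-fold (0.657 to 0.690) and 0.702-fold (0.678 to 0.726) of wild type in the library labelled double KO, and 0.703-fold (0.686 to 0.720) and 0.777-fold (0.751 to 0.804) in Itch KO.

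Gbp3 and Iigp1 departed from this order. Gbp3 had 1560, 1711, 2226 and 1658 reads, highest in WWP2 KO at 1.36-fold of wild type (1.27 to 1.45). Iigp1, an effector IRG that disrupts vacuoles, had 3623 reads in the library labelled double KO, 5269 in the Itch KO library, 6598 in WWP2 KO and 3873 in wild type, so both single knockouts stood above wild type, at 1.36-fold (1.30 to 1.42) in Itch KO and 1.72-fold (1.66 to 1.79) in WWP2 KO. Set against WWP2 KO, the library labelled double KO had Gbp2, Irgm1 and Irgm2 called lower, by 2.70-fold (2.64 to 2.75), 2.21-fold (2.14 to 2.29) and 2.29-fold (2.17 to 2.42). That comparison called 8 of 41 members higher (19.5%, against 11.6% of all tested genes), namely Isg15, Isg20, Mx1, Oas2, Oas3, Ifi27l2a, Ifi204 and Zbp1. It called 7 lower (17.1%, against 6.05%), which were the 3 IFIT genes, Ifi203, Gbp2, Irgm1 and Irgm2. Of the 8, Mx1, Oas2 and Ifi204 reached the minimum level only through the library labelled double KO. Their calls are thus no support for a direction of the list.

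The Mx genes encode dynamin-like GTPases that trap viral ribonucleoproteins; in B6 mice the Mx1 allele carries a deletion and makes no working protein. Mx1 had 89 reads in the library labelled double KO, 57 in the Itch KO library, 18 in WWP2 KO and 26 in wild type. Relative to wild type it was 3.19-fold higher (2.04 to 5.15) in the library labelled double KO and 2.19-fold higher (1.36 to 3.63) in Itch KO. Mx1 reached the minimum level only through the library labelled double KO, in which it was highest. Its ratios are thus no support for a direction of the Mx genes. Mx2 had at most 16 reads in any library.

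Ifng itself, the ligand best known for GBP and IRG genes, did not follow their order. It had 216 reads in the library labelled double KO, 469 in the Itch KO library, 291 in WWP2 KO and 312 in wild type, with Itch KO at 1.5-fold of wild type (1.30 to 1.74) and the library labelled double KO 2.33-fold under Itch KO (1.98 to 2.75). NK cell markers, of another source of interferon gamma, summed to 2.15 CPM in the library labelled double KO, 5.94 in the Itch KO library, 5.83 in WWP2 KO and 8.71 in wild type over 6 genes, and their part in these levels was not tested. In bulk RNA, fewer cells of a type and less RNA per cell cannot be told apart.

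Of the 4 regulators of the response, 3 were higher under both Itch-deficient labels than in the other libraries (75%, against 24.1% of all tested genes). Isg15, a ubiquitin-like protein joined to targets after interferon, had 443 reads in the library labelled double KO, 328 in the Itch KO library, 192 in WWP2 KO and 171 in wild type. Relative to wild type it was 2.42-fold higher (2.02 to 2.90) in the library labelled double KO and 1.92-fold higher (1.59 to 2.32) in Itch KO, which is short of the 2-fold rule. Irf7, the factor that amplifies type I interferon production, had 385, 282, 207 and 211 reads. Usp18, which removes Isg15 from proteins and damps the type I receptor, had 131, 113, 73 and 78 reads. For Isg15, Irf7 and Usp18 both Itch-deficient labels lay above both other libraries, although only Isg15 in the library labelled double KO passed the rule. Irf9, a DNA-binding factor of the type I interferon response, had 1915, 1308, 1608 and 1487 reads, highest in the library labelled double KO and lowest in Itch KO.

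The OAS enzymes make short oligoadenylates that switch on RNase L. Oas3 had 390 reads in the library labelled double KO, 156 in the Itch KO library, 102 in WWP2 KO and 126 in wild type. Oas1b, of which B6 mice carry a truncated form, had 211, 103, 121 and 96 reads, and Oas2 had 80, 32, 34 and 38. For each of these genes the library labelled double KO stood alone above the other 3. Against wild type it was 2.89-fold higher for Oas3 (2.36 to 3.56), 2.05-fold for Oas1b (1.60 to 2.64) and 1.96-fold for Oas2 (1.32 to 2.97), with Oas2 just short of the rule. Against Itch KO, Oas2 did pass, at 2.33-fold (1.53 to 3.63). Oas2 reached the minimum level only through the library labelled double KO, so its ratios are no support for a direction of the OAS genes. In Itch KO the OAS genes with enough reads were not called, and the intervals of all 4 against wild type included 1. Oasl2, an OAS-like gene, had 47, 31, 46 and 38 reads. Oas1a and Oasl1, with at most 41 and 35 reads, were under the minimum, and reads of the Oas1 copies can be shared.

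Nucleic acid sensors detect viral RNA or DNA in the cell. Ddx58, which encodes the RNA sensor RIG-I, had 914 reads in the library labelled double KO, 392 in the Itch KO library, 427 in WWP2 KO and 349 in wild type. Zbp1, a sensor of Z-form nucleic acids that can trigger cell death, had 1468, 658, 592 and 533 reads. The library labelled double KO was 2.44-fold higher than wild type for Ddx58 (2.16 to 2.77) and 2.57-fold higher for Zbp1 (2.33 to 2.84), and higher than Itch KO by 2.18-fold (1.93 to 2.46) and 2.08-fold (1.90 to 2.29). Ifih1, the sensor MDA5 of long double-stranded RNA, had 316, 500, 415 and 360 reads and so was lowest where its relative Ddx58 was highest. Eif2ak2, the kinase PKR that halts translation on double-stranded RNA, stood at 1.47-fold (1.27 to 1.70) in the library labelled double KO. Dhx58, the regulator LGP2, ran from 86 to 109 reads, with intervals against wild type that included 1 in each library.

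The Ifi200 genes encode a family of pyrin-domain proteins, several of which bind DNA, from a cluster of near-copies whose reads may be misassigned. Ifi204, a relative of the human DNA sensor IFI16, had 215 reads in the library labelled double KO, 24 in the Itch KO library, 4 in WWP2 KO and 6 in wild type. Its level in the library labelled double KO was 33.4-fold that of wild type (15.1 to 92.1), the highest ratio of the list, and 8.36-fold that of Itch KO (5.47 to 13.3). Ifi204 reached the minimum level only through the library labelled double KO, so this rank is no support for a direction of the Ifi200 genes. Ifi203 had 1795, 3161, 3659 and 3054 reads, lowest in the library in which Ifi204 was highest. Against WWP2 KO it was called lower in the library labelled double KO, by 2.21-fold (2.09 to 2.34). Mnda had 17, 17, 2 and 5 reads and Ifi205 had 1, 9, 2 and 0, too few for a statement.

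Ifi204 and Mnda are also expressed in myeloid cells. Of 10 monocyte and macrophage markers 9 were in the table, and their sum was 22.5 CPM in the library labelled double KO, 8.01 in the Itch KO library, 4.72 in WWP2 KO and 4.79 in wild type. Cd68, a lysosomal gene, held most of it, with 354, 103, 56 and 52 reads. Of the others, Csf1r had 2 reads in the library labelled double KO and 0 elsewhere. Fcgr1 had 0 in every library, and Lyz2 had 5, 5, 0 and 1. Cx3cr1 had 33, 16, 12 and 7 reads, also highest in the library labelled double KO, and Itgam had 12, 13, 9 and 16. Dendritic cell markers summed to 23.3, 14.4, 5.25 and 7.61 CPM in the same order, most of it from the chemokine receptor gene Xcr1 and from Zbtb46, and their part in the Ifi204 level was not tested. Markers of plasmacytoid dendritic cells, a main source of type I interferon, summed to 4.36, 15.8, 11.6 and 10.9 CPM. Tcf4 and Ccr9 held most of each sum, and Siglech had 0, 26, 2 and 9 reads. CD8 markers summed to between 6.53 and 15.9 CPM and mast cell and basophil markers to between 5.38 and 28.9 CPM.

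Of 7 tested other effectors only Isg20, an RNA exonuclease, was called against wild type. It was called higher in the library labelled double KO (14.3%, against 12.3% of all tested genes), a share near the background. Isg20 had 459 reads in the library labelled double KO, 200 in the Itch KO library, 172 in WWP2 KO and 150 in wild type. The library labelled double KO stood at 2.85-fold of wild type for it (2.37 to 3.46). Ifi27l2a, a small membrane protein gene, had 1413, 810, 516 and 740 reads and was called higher in the library labelled double KO against WWP2 KO only, by 2.53-fold (2.28 to 2.80). Xaf1, a partner of the apoptosis inhibitor XIAP, stood at 1.91-fold of wild type (1.49 to 2.47) in the library labelled double KO and 0.979-fold (0.729 to 1.31) in Itch KO. Bst2, the virion tether, and Rtp4, a receptor chaperone, lay at 0.716-fold (0.632 to 0.811) and 0.713-fold (0.541 to 0.935) in the library labelled double KO. Ifi35 had 934, 879, 939 and 955 reads, close to each other in all 4 libraries, and Samd9l had 938, 581, 855 and 688, lowest in Itch KO.

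Parp9 and Dtx3l, whose products work as a complex of ADP-ribosylation and ubiquitin transfer, shared a profile in which Itch KO was lowest. Parp9 had 1707 reads in the library labelled double KO, 1060 in the Itch KO library, 1860 in WWP2 KO and 1601 in wild type, and Dtx3l had 2594, 1870, 2967 and 2400. Itch KO stood at 0.662-fold of wild type for Parp9 (0.612 to 0.716) and 0.779-fold for Dtx3l (0.733 to 0.828), while the library labelled double KO stood at 0.995-fold (0.929 to 1.07) and 1.01-fold (0.953 to 1.07). Parp14 had 5393, 4664, 7676 and 5801 reads. Parp12, an antiviral mono-ADP-ribosyltransferase, had 138, 93, 72 and 68. The surface protein gene Ly6e had 9322, 7739, 14010 and 12785 reads, lower under both Itch-deficient labels, and Ly6a, which encodes the activation marker Sca-1, had 14346, 8585, 10401 and 9992. The members under the minimum level not yet named, Rsad2 and Ifi44, had at most 23 and 14 reads.

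Across the 4 libraries, both Itch-deficient labels lay below WWP2 KO and wild type for 16 of 41 members (39.0%, against 27.0% of all tested genes) and above them for 11 (26.8%, against 24.1%). The 16 took in all 3 IFIT genes and 7 of 10 tested GTPase members, together with Ly6e, Parp9, Parp14, Ifi35, Bst2 and Rtp4. The 11 took in Isg15, Irf7 and Usp18 of the 4 regulators, Mx1, Oas3, Ifi204, Zbp1, Eif2ak2, Parp12, Isg20 and Ifi27l2a. Mx1 and Ifi204 reached the minimum level only through the library labelled double KO. The order was taken on levels with no margin. On the low side Parp9 in the library labelled double KO and Ifi35 in Itch KO had intervals against wild type that included 1. On the high side Oas3, Eif2ak2, Parp12 and Ifi27l2a had such intervals in Itch KO. Against WWP2 KO, the library labelled double KO had intervals that included 1 for Ifi35 (0.837 to 1.01) and Rtp4 (0.602 to 1.06), both on the low side. Intervals of Itch KO against WWP2 KO were not computed. WWP2 KO was the highest library for 17 of 41 members (41.5%, against 19.6% of all tested genes), and Itch KO the highest for 1 (2.44%, against 17.6%). The library labelled double KO was highest for 19 members (46.3%, against 40.3%) and lowest for 16 (39.0%, against 40.6%), shares close to those of all genes.

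**Figure D4:**
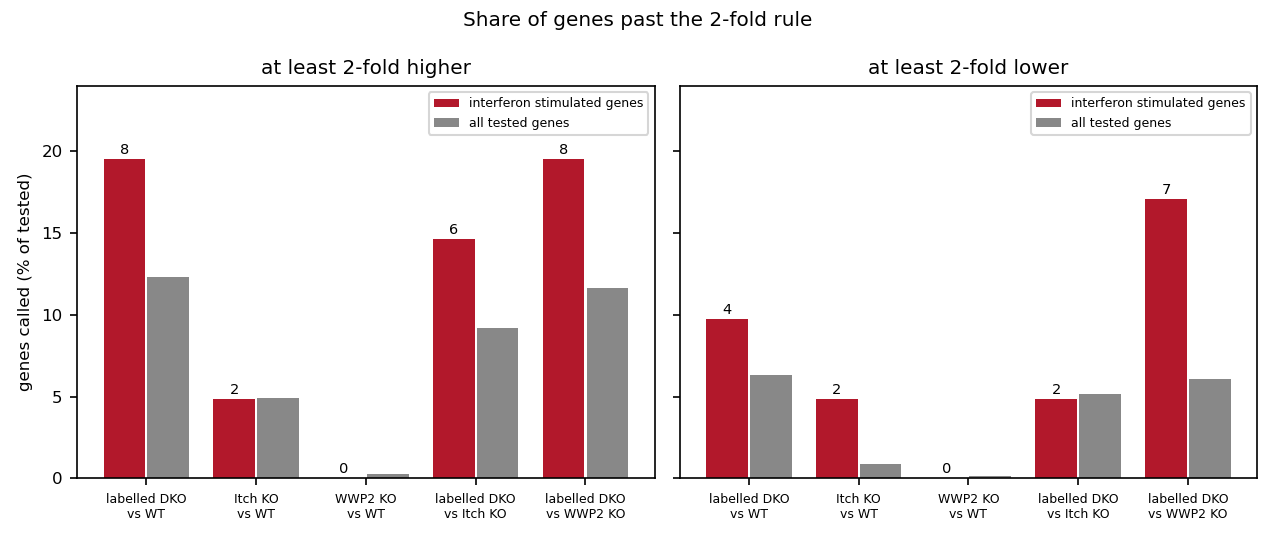
Share of tested genes (y axis, %) past the 2-fold rule in each comparison (x axis), higher on the left and lower on the right, for the 41 tested members, with their number above the bar, and for all 9926 tested genes. In WWP2 KO against wild type 0 members were called, and against WWP2 KO the library labelled double KO had 8 higher and 7 lower. Of the 8, Mx1, Oas2 and Ifi204 reached the minimum level only through the library labelled double KO.

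Upstream genes of the pathway came from separate lists. Of 10 interferon genes in the table, Ifng was the only one with enough reads. Among 22 tested receptor and signalling genes, 2 were called higher and 2 lower in the library labelled double KO (9.09% each, against 12.3% and 6.34% of all tested genes), shares near the background. In Itch KO 3 were called higher and 1 lower (13.6% and 4.55%, against 4.89% and 0.846%), and in WWP2 KO 0 were called (against 0.282% and 0.161%). Socs3, a feedback inhibitor of cytokine receptors, had 4794 reads in the library labelled double KO, 1279 in the Itch KO library, 351 in WWP2 KO and 354 in wild type. It was 12.6-fold (11.3 to 14.1) and 3.61-fold (3.21 to 4.07) higher than wild type in the first and second of these. Socs1, the inhibitor closest to interferon receptors, was 2.06-fold higher (1.88 to 2.25) than wild type in each of those libraries, with 1600, 1493, 978 and 725 reads. Ifngr2, a chain of the interferon gamma receptor, stood at 1.72-fold (1.55 to 1.92) in the library labelled double KO.

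At the low end of that list Irf4, a factor of activated T cells, had 34474 reads in the library labelled double KO, 69910 in the Itch KO library, 66244 in WWP2 KO and 67135 in wild type, and the related Irf8 had 7262, 10952, 12854 and 12828. Both were thus apart in the library labelled double KO, Irf4 at 0.479-fold of wild type (0.473 to 0.485). Ptpn6, the phosphatase SHP-1 that dampens receptor signalling, was the other gene of that list called lower, 2.14-fold in the library labelled double KO (upper bound 2.30) and 2.04-fold in Itch KO (1.90 to 2.19). Of 7 tested sensor and adaptor genes upstream of interferon, 1 was called higher in the library labelled double KO (14.3%, against 12.3% of all tested genes), a share near the background, and 0 in Itch KO or WWP2 KO. It was Tmem173, which encodes the DNA response adaptor STING, at 2.63-fold of wild type (2.47 to 2.81). Myd88, the Toll-like receptor adaptor, stood at 1.82-fold (1.69 to 1.96) in that library and Ikbke, a kinase that activates interferon factors, at 0.557-fold (0.528 to 0.586).

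A further list of 45 tested interferon stimulated genes outside the 48 also had members on both sides of wild type. In the library labelled double KO 9 were called higher than wild type (20%, against 12.3% of all tested genes) and 3 lower (6.67%, against 6.34%, a share at the background). In Itch KO 5 were called higher (11.1%, against 4.89%) and 1 lower (2.22%, against 0.846%), and in WWP2 KO 0 were called in either direction (against 0.282% and 0.161%). Of the 9, Ifi27l2b and Ifitm3 reached the minimum level only through the library labelled double KO, in which they were highest, as did Ifitm3 of the 5 in Itch KO, so these counts are no support for a direction of the list. Their medians were 0.05, -0.21 and 0.13 on the log2 scale. Those lower in the library labelled double KO were the chemokine gene Cxcl10, 4.37-fold (3.77 to 5.08), and the guanylate-binding genes Gbp9, 2.42-fold (2.31 to 2.53), and Gbp5, at 0.321-fold of wild type (0.309 to 0.334). Cxcl10 was also 2.18-fold below wild type (1.94 to 2.45) in Itch KO. At the high end Ifi27l2b, a neighbour copy of Ifi27l2a, had 189 reads in the library labelled double KO and 0 in the other libraries. Beside it stood the membrane proteins that block virus entry, Ifitm3, 27.8-fold (12.5 to 76.9), and Ifitm2, 16.2-fold (11.0 to 24.9).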

How the data were processed

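The deposited table held raw read counts per gene for 4 libraries, with no normalization by the authors. Per the submitters' processing notes, the tools were Bowtie 1.0.0, TopHat 1.4.1 and HTSeq 0.7.1 and the build was mm9. No annotation, strand setting or filter is stated there, so antisense partners and near-identical copies can share or lose reads. Libraries were made after mRNA enrichment, per the labels' protocols.

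Counts were scaled with TMM factors of all 4 libraries (edgeR 4.0.16, R 4.3.3). With 1 library per group no p-value was computed. Fold intervals are exact conditional binomial, level intervals exact Poisson, both at 95%. The 2-fold rule was tested on simulated data. Alternatives used DESeq2 1.42.0 size factors, total counts, other low filters, a prior count of 0.5 and a 1.5-fold rule. Intervals came from scipy 1.17.1 under Python 3.11.15, tables from pandas 2.3.3 and numpy 2.4.6, figures from matplotlib 3.10.9.

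The members and lists were chosen with earlier results of these data known. Any member may be named; of the other lists, up to 3 genes at each end of the ratios of the library labelled double KO to wild type, besides Ifng, and marker genes beside the result they bear on, which were chosen after their values were seen. Promoters came from RefSeq (GRCm38.p6), used for sequences only.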

Additional observations from a re-analysis of the deposited data

Results flagged for a closer look

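Results are given here when the effect of 1 label had opposite signs in 2 backgrounds, each with a counting interval excluding 1, and the log2 ratios differed by at least 1. With 1 library per cell of the design the difference was not tested, and it rests on a library whose Wwp2 label is in doubt. For the WWP2-deficient label, set as the library labelled double KO against Itch KO and as WWP2 KO against wild type, Gbp2 had log2 ratios of -0.89 and 0.21 (difference -1.09), Ifi203 -0.92 and 0.28 (-1.19), Iigp1 -0.64 and 0.78 (-1.42) and Ifi27l2a 0.70 and -0.50 (1.20). For the Itch-deficient label, set as the library labelled double KO against WWP2 KO and as Itch KO against wild type, Iigp1 had -0.98 and 0.44, and its difference is the same -1.42 by construction.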

How the results depend on the processing

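No paired analysis was possible because each group has 1 library and the shared replicate number 1 is the only one. For the same reason no library could be left out within a group. Median-of-ratios factors, total counts and a prior count of 0.5 left each count of called members within 1.5 times its value in the report. The low filter and the threshold moved counts. Percentages in brackets are the shares of all tested genes under the same setting. For the library labelled double KO over wild type, a minimum of 10 CPM gave 5 higher (8.42%). A 1.5-fold rule gave 14 higher (20.5%) and 9 lower (17.5%). In Itch KO against wild type, the number higher was 0 at 10 CPM (2.94%) and 5 with no filter (4.66%). It was 0 without the library labelled double KO (3.91%). The number lower was 1 at 10 CPM (0.569%) and 8 at 1.5-fold (4.39%). In WWP2 KO against wild type, 1.5-fold gave 1 higher (1.19%) and 1 lower (0.756%) and no filter gave 2 lower (0.362%). Against Itch KO, the library labelled double KO had 12 higher (19.5%) and 7 lower (14.5%) at 1.5-fold. It had 1 lower at 10 CPM (4.35%) and 4 lower with no filter (4.54%). Against WWP2 KO it had 14 higher (19.6%) and 15 lower (16.8%) at 1.5-fold and 5 higher at 10 CPM (7.90%). Members higher under both Itch-deficient labels numbered 7 at 10 CPM (22.4%). Fewer members are tested at 10 CPM (30) and more with no filter (48). No called ratio changed sign under another scaling or prior count, and 27 single ratios left their counting interval while 789 stayed within it. Depth limits the low members: wild type had 6 reads of Ifi204 and 26 of Mx1, and the library labelled double KO had 22 of Ifit3.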

Other observations

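Other genes of the Ifi200 cluster, outside the 48, were described from 5 tested genes. Pydc3 had 391 reads in the library labelled double KO, 277 in the Itch KO library, 926 in WWP2 KO and 302 in wild type, and at 3.10-fold of wild type in WWP2 KO (2.72 to 3.54) it was the only gene of the lists of interferon pathway genes used here that was called in that comparison. Pydc4, its neighbour in name, had 39, 71, 106 and 66 reads, also highest in WWP2 KO. Aim2, the DNA sensor of the inflammasome, had 642, 375, 344 and 322 reads and stood at 1.86-fold of wild type (1.62 to 2.13) in the library labelled double KO. Pyhin1 had 1400, 886, 1683 and 1426 reads, with Itch KO at 0.621-fold (0.570 to 0.676), and Mndal had 919, 1337, 1449 and 1285 reads. The library labelled double KO was thus highest for Ifi204 and Aim2, and WWP2 KO for Ifi203, Pydc3, Pydc4, Pyhin1 and Mndal. Of these, Ifi204 reached the minimum level only through the library labelled double KO. Pyhin1 and Pydc3 were lowest in Itch KO. Their reads may be shared between near-copies.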
